A study of Mus musculus with 9 samples.

Results

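The genes described here encode proteins that bind messenger RNA and set how fast it is degraded in T cells. The 9 genes are Zfp36, Zfp36l1 and Zfp36l2, Rc3h1 and Zc3h12a, Elavl1 and Pum2, and Cnot1 and Xrn1. They were taken by name, and a gene was given a value when the array's annotation listed at least 1 probe set for that gene alone. This held for 8 of the 9 genes, of 18193 genes measured in all, and these 8 were covered by 21 probe sets. Cnot1 was not measured under this rule, because each of its 2 probe sets (1434251_at and 1457546_at) was also listed for Gm6158. Each gene is given by its brightest probe set, the one with the highest mean over the 9 arrays, with its other probe sets beside it.

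T cells of the strain C57BL/6 were cultured for 24 h in 3 ways, with 3 arrays from each. The allogeneic cultures held dendritic cells of the strain BALB/c at 1 per 20 T cells, while the anti-CD3/CD28 cultures had no dendritic cells and received anti-CD3e and anti-CD28 antibodies (0.1 µg/ml). The syngeneic cultures, the comparison point for both, held C57BL/6 dendritic cells at the same ratio. In all 3, T cells were purified magnetically by negative selection after incubation with CD11c beads, irradiated with ultraviolet light (400 mJ/cm2 as the first dose), lysed and immunoprecipitated for AGO, the Argonaute protein that carries microRNAs to their target transcripts. The recovered RNA was amplified, labelled with biotin and hybridised to Affymetrix arrays. Arrays are called here by culture and by the replicate number (1, 2 or 3) in their labels. The labels call the replicates biological but name no animal or culture of origin. P-values thus measure the spread between these arrays, and that spread may be technical in part.

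Most cytoplasmic messenger RNAs lose their poly(A) tail first. The CCR4-NOT complex, built on the scaffold protein CNOT1, removes most of the tail, and the RNA is then decapped and degraded by the exonuclease XRN1 or degraded from its tail end by the RNA exosome. Proteins that recognise elements in single transcripts decide which of them are sent down this path. Tristetraprolin (Zfp36) and its relatives Zfp36l1 and Zfp36l2 bind AU-rich elements and recruit CCR4-NOT, Roquin-1 (Rc3h1) binds stem-loops and does the same, Regnase-1 (Zc3h12a) cuts transcripts at stem-loops, and PUM2 recruits CCR4-NOT to Pumilio elements. HuR (Elavl1) also binds AU-rich elements, but is known for stabilising its targets. In T cells the tristetraprolin family, Roquin-1 and Regnase-1 restrain cytokine and costimulatory transcripts, and microRNAs bound to AGO act through the same CCR4-NOT machinery.

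The promoters of 3 of the genes are printed because their brightest probe sets lay on 1 side of the syngeneic array in all 3 anti-CD3/CD28 arrays, Zfp36 and Zfp36l1 below it and Elavl1 above it. Each run is the 250 bases before the annotated start of the gene, read 5′ to 3′ on the gene's strand, from RefSeq on the build GRCm38.p6. Zfp36 is at chr7:28379229-28379478 on the minus strand, Zfp36l1 at chr12:80113014-80113263 on the minus strand and Elavl1 at chr8:4325101-4325350 on the minus strand. Capitals mark matches, on either strand, to motifs known from immediate-early and general promoters.
Zfp36: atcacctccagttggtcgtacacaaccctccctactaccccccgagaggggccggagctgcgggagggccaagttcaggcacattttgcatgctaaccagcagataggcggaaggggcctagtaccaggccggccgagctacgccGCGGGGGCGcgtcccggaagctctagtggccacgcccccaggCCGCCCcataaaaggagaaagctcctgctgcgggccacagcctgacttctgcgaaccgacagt
Zfp36l1: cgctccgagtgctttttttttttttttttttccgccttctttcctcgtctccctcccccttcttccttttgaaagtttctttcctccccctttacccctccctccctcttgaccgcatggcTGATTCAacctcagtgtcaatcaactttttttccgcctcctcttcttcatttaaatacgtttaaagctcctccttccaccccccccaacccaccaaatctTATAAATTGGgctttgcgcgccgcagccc
Elavl1: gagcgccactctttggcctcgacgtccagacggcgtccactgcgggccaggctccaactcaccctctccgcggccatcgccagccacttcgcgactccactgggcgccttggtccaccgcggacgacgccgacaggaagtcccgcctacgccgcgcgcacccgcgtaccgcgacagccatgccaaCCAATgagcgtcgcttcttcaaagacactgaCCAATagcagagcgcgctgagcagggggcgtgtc

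Motifs were searched on both strands, with N for any base. The general promoter motifs were the TATA box with the letters TATAAA, the CCAAT box with the letters that name it, and the GC box with the letters GGGCGG. The motifs of inducible factors were AP-1 with the letters TGANTCA, EGR with the letters GCGNGGGCG, and CRE with the letters TGACGTCA. In the Zfp36 window, bases −105 to −97 from the start match the EGR motif, which 4.70% of 32851 such windows of 27025 genes hold, and bases −63 to −58 match the GC box on the opposite strand, which 32.7% hold. The Zfp36l1 window holds an AP-1 match at −129 to −123, as do 6.75% of all windows. It also holds a TATA box match at −29 to −24, as do 12.4%, which shares a base with a CCAAT match on the opposite strand at −24 to −20. The Elavl1 window holds CCAAT at −65 to −61 and at −34 to −30, and 33.9% of windows hold at least 1. Promoters were listed for 7 of the 8 measured genes, and the CRE motif, found in 1.55% of all windows, was in none of them. The windows describe the genes only, since AGO-bound RNA was measured and not transcription.

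The signals are log2 values, as deposited, and array medians over all probe sets ran from 4.58 to 5.67. Of 10 T cell markers 9 were measured, and all 9 were above the array median on all 9 arrays, with a mean log2 signal of 9.88 to 11.19 in allogeneic, 10.38 to 11.46 in anti-CD3/CD28 and 9.75 to 11.05 in syngeneic arrays. The arrays held signals of other cells too. The mean of 10 macrophage and monocyte markers was 4.88 to 5.76 in allogeneic, 4.10 to 5.70 in anti-CD3/CD28 and 6.00 to 7.36 in syngeneic arrays, and all 10 markers averaged lower in each stimulated culture than in syngeneic culture. The mean of 10 dendritic cell markers was 7.87 to 9.31 in allogeneic, 7.44 to 7.72 in anti-CD3/CD28 and 8.08 to 9.38 in syngeneic arrays, and their part in the results below was not tested. The 5 measured B cell markers averaged 6.50 to 8.19 in allogeneic, 6.27 to 8.60 in anti-CD3/CD28 and 6.97 to 8.24 in syngeneic arrays, and the 6 granulocyte markers 4.70 to 6.63 in allogeneic, 4.30 to 5.29 in anti-CD3/CD28 and 4.77 to 6.55 in syngeneic arrays. Signals were closer between arrays that share a replicate number than between arrays that share a culture. One pair stood apart, allogeneic array 1 and anti-CD3/CD28 array 1: 49.0% of genes had exactly the same value on both, and the SD of their difference over all genes was 0.10, against 0.49 for number 2 and 0.68 for number 3. Results that rest on the arrays numbered 1 are therefore also given without them.

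On their brightest probe sets, the AGO-bound signals of the 3 tristetraprolin family genes were high on every array and differed little between the cultures. Zfp36 (1452519_a_at) had log2 signals of 11.48, 10.70 and 11.05 on the allogeneic arrays 1 to 3, 11.51, 10.40 and 10.65 on the anti-CD3/CD28 arrays and 12.28, 10.49 and 11.21 on the syngeneic arrays. Zfp36l1 (1450644_at) had 11.30, 10.62 and 10.68 on the allogeneic arrays, 11.25, 10.47 and 10.34 on the anti-CD3/CD28 arrays and 11.40, 10.76 and 11.03 on the syngeneic arrays. Zfp36l2 (1437626_at) had 10.42, 9.56 and 10.00 on the allogeneic arrays, 10.42, 9.90 and 9.97 on the anti-CD3/CD28 arrays and 10.81, 9.82 and 10.34 on the syngeneic arrays. On these probe sets of all 3 genes the arrays numbered 1 were the highest of their culture, the highest value of all was on syngeneic array 1, and the cultures overlapped. In these bulk samples fewer cells of a type and less RNA per cell cannot be told apart. Each signal also depends on both the amount of a transcript and the share of it held by AGO, and arrays of input RNA were not analysed here.

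**Figure D1:**
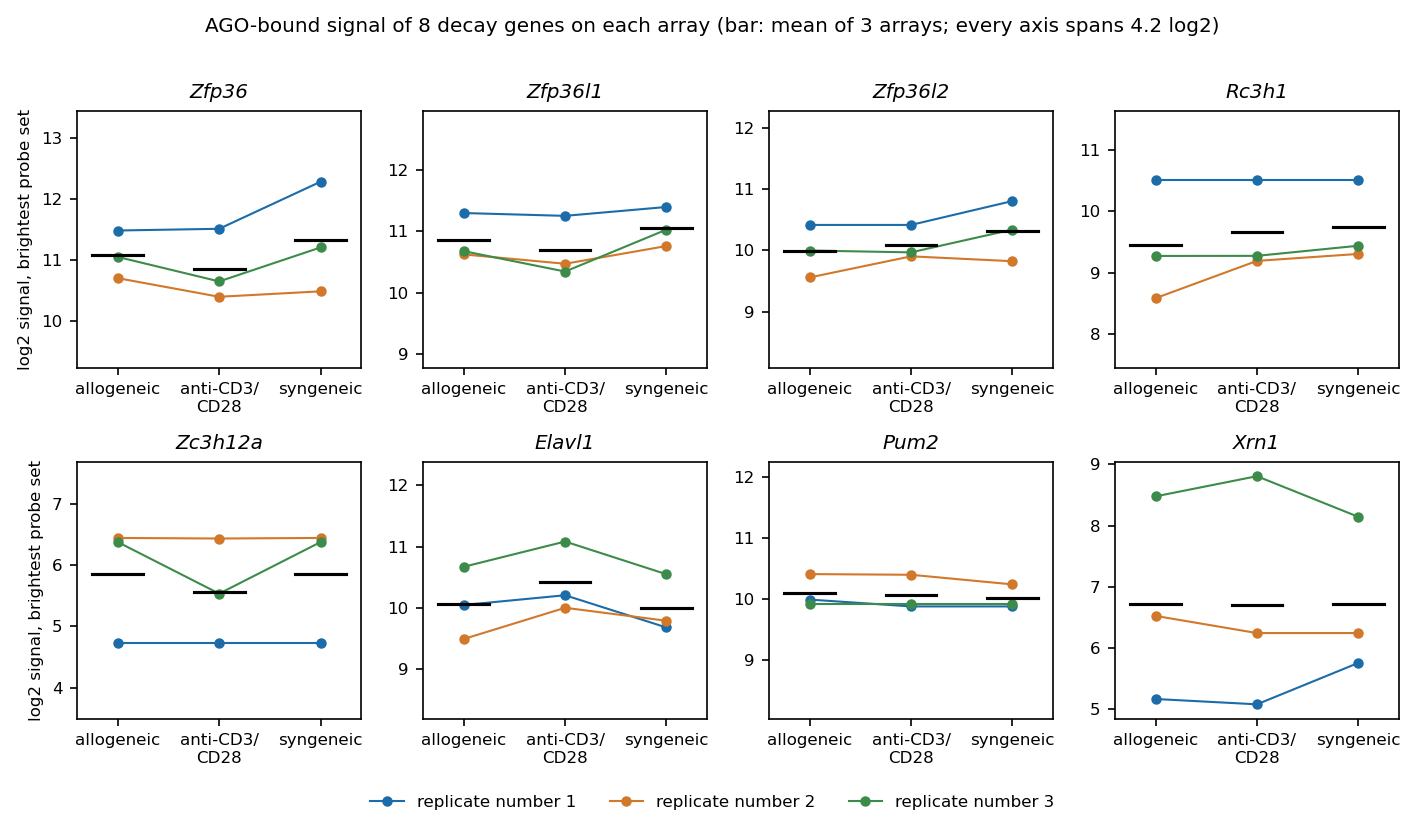
Log2 signal of the brightest probe set of each of the 8 measured genes (vertical axis, spanning 4.2 log2 units in every panel) in the allogeneic, anti-CD3/CD28 and syngeneic cultures (horizontal axis). Each point is 1 array, lines join arrays of the same replicate number, and bars are the mean of 3 arrays; the lines of a gene lie farther apart than its bars, as for Xrn1, whose values run from 5.08 to 8.81.

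Against syngeneic culture, the 3 family genes averaged lower in both stimulated cultures, and none of these differences passed the test. In allogeneic culture Zfp36l2 averaged 9.99 ± 0.43, against 10.32 ± 0.49 in syngeneic culture (SD, n = 3 each), and was lower within all 3 replicate numbers, by 0.39, 0.27 and 0.34 on the log2 scale. The mean difference was −0.33, a fold of 0.794, with a 95% interval of −1.27 to 0.61 from limma. With replicate number as a block in the fit the interval was −0.65 to −0.02, with an adjusted p of 0.709 over all genes. Zfp36l1 was also lower in all 3 numbers, with differences of −0.10, −0.14 and −0.35 and a mean of −0.20 (95% interval −1.03 to 0.64). Zfp36 differed by −0.80, 0.22 and −0.15, with a mean of −0.25, and by 0.03 without the arrays numbered 1, so its lower mean rests on those arrays.

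In anti-CD3/CD28 culture Zfp36 and Zfp36l1 lay farther below syngeneic culture on average than Zfp36l2. Zfp36 averaged 10.85 ± 0.58, against 11.32 ± 0.90 in syngeneic culture, with differences of −0.77, −0.09 and −0.55 and a mean of −0.47 (95% interval −1.50 to 0.56). Zfp36l1 averaged 10.69 ± 0.49, against 11.06 ± 0.32, with differences of −0.15, −0.29 and −0.68 and a mean of −0.37 (95% interval −1.21 to 0.46). Both were thus lower in all 3 replicate numbers. With replicate number as a block the 95% intervals were −0.97 to 0.03 for Zfp36 and −0.67 to −0.08 for Zfp36l1. Zfp36l2 was lower by 0.39 and 0.37 within numbers 1 and 3 and higher by 0.08 within number 2, with a mean of −0.23. Without the arrays numbered 1 the means were −0.32 for Zfp36 and −0.49 for Zfp36l1. With syngeneic array 1 alone left out, and no block, the difference became 0.0065 for Zfp36 and 0.013 for Zfp36l2, while Zfp36l1 stayed lower. That fit sets all 3 anti-CD3/CD28 arrays against the syngeneic arrays numbered 2 and 3, so its differences also hold offsets between replicate numbers. limma's adjusted p was 1 for each of the 3 genes, and with the replicate block it was 0.729 for Zfp36, 0.727 for Zfp36l1 and 0.729 for Zfp36l2.

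Between the stimulated cultures, Zfp36l1 was slightly higher in allogeneic culture in all 3 numbers, by 0.05, 0.15 and 0.33. Its mean difference was 0.18, with a 95% interval of −0.66 to 1.01. Zfp36 differed by −0.03, 0.30 and 0.40 and Zfp36l2 by 0, −0.34 and 0.03. None passed the test, and the adjusted p was 1 for each.

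**Figure D2:**
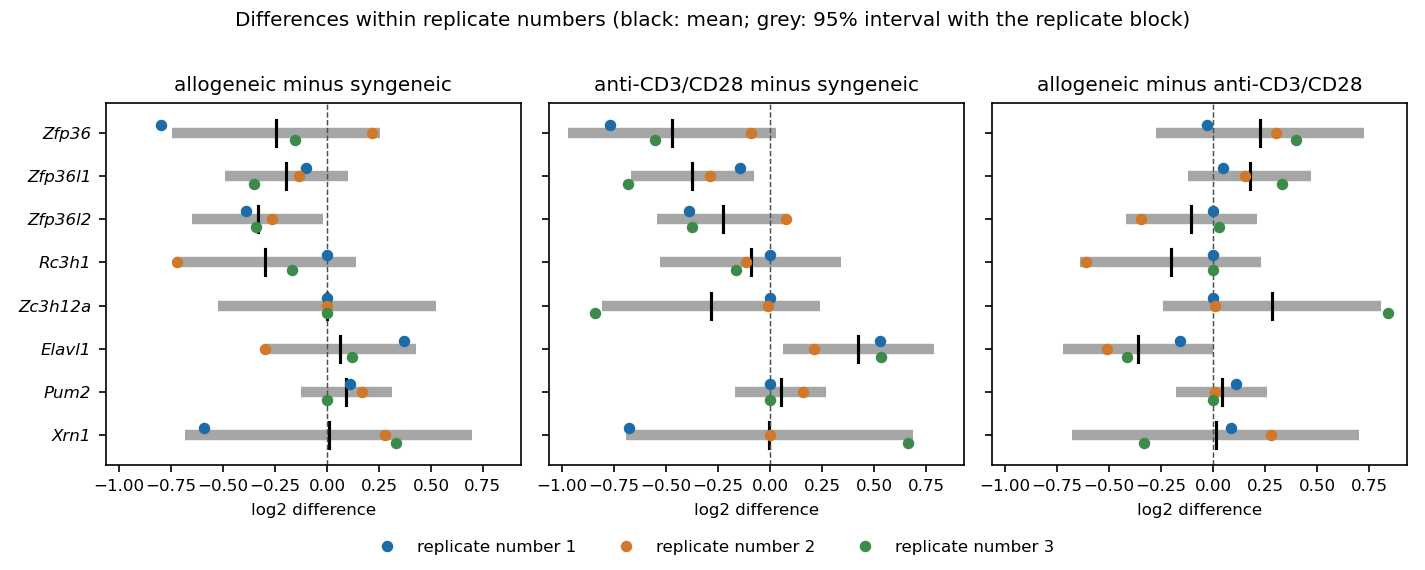
Log2 differences of the 8 genes within each replicate number (points), with their mean (black line) and the 95% interval of limma with the replicate block (grey bar), for each of the 3 comparisons. In anti-CD3/CD28 minus syngeneic culture the 3 points of Zfp36 and Zfp36l1 lie below 0 and those of Elavl1 above it; several points of Rc3h1, Zc3h12a, Pum2, Xrn1 and Zfp36l2 lie exactly at 0.

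Rc3h1 and Zc3h12a, whose proteins act on stem-loops, had many values that were exactly equal between arrays. Rc3h1 (1434933_at) had log2 signals of 10.51, 8.58 and 9.27 on the allogeneic arrays, 10.51, 9.19 and 9.27 on the anti-CD3/CD28 arrays and 10.51, 9.31 and 9.44 on the syngeneic arrays. Zc3h12a (1427348_at) had 4.74, 6.45 and 6.38 on the allogeneic arrays, 4.74, 6.44 and 5.54 on the anti-CD3/CD28 arrays and 4.74, 6.45 and 6.38 on the syngeneic arrays. On these probe sets the 3 arrays numbered 1 held 1 value of each gene, and Zc3h12a was identical in allogeneic and syngeneic culture in all 3 numbers. Such equal pairs made up 14 of the 72 pairs of arrays of the same number over the 8 genes. They are also common among all genes, at 17.9% to 49.0% of genes in a pair. A difference of 0 for these genes may thus be an equal value of this kind.

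Where values differed, Rc3h1 was lower in allogeneic than in syngeneic culture by 0.72 in number 2 and 0.17 in number 3, with a mean difference of −0.30 (95% interval −1.61 to 1.02). In anti-CD3/CD28 culture Rc3h1 differed from syngeneic culture by −0.11 and −0.17 in these numbers, with a mean of −0.09, and by 0.02 with each array centred on its median. On the brightest probe set of Zc3h12a the 1 sizeable difference was on anti-CD3/CD28 array 3, which was 0.84 below both other arrays of its number. It gave means of −0.28 against syngeneic culture and 0.28 for allogeneic against anti-CD3/CD28 culture. Zc3h12a lay 0.14 to 1.57 above the array medians, the smallest margin among the 8 brightest probe sets. Neither gene passed the test in any comparison, with adjusted p of 1.

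Elavl1 was the 1 gene of the 8 that was higher in anti-CD3/CD28 than in syngeneic culture in all 3 replicate numbers. Elavl1 (1448151_at) had log2 signals of 10.05, 9.49 and 10.67 on the allogeneic arrays, 10.20, 10.00 and 11.08 on the anti-CD3/CD28 arrays and 9.68, 9.79 and 10.55 on the syngeneic arrays. Within each number the anti-CD3/CD28 array was the highest of the 3, while the cultures as groups overlapped. Anti-CD3/CD28 culture averaged 10.43 ± 0.58, against 10.00 ± 0.47 in syngeneic culture, with differences of 0.53, 0.21 and 0.54 and a mean of 0.42, a fold of 1.34. The 95% interval was −0.61 to 1.46, or 0.06 to 0.79 with the replicate block, with adjusted p of 1 and 0.727. This mean difference stood at the 94.0th percentile of all genes.

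Allogeneic culture did not share this pattern in the values. Elavl1 differed by 0.37, −0.30 and 0.12 from syngeneic culture, with a mean of 0.06, and by −0.09 without the arrays numbered 1. Against anti-CD3/CD28 culture allogeneic culture was lower in all 3 numbers, by 0.16, 0.51 and 0.41, with a mean of −0.36 and a 95% interval of −1.40 to 0.68. The adjusted p of this comparison was 1, and 0.928 with the replicate block. It shares its anti-CD3/CD28 arrays with the difference from syngeneic culture, so the 2 differences are not separate evidence. Of the 9 measured T cell markers, 8 were higher and 1 lower in anti-CD3/CD28 against syngeneic culture (median 0.19). In allogeneic against anti-CD3/CD28 culture all 9 were lower (median −0.28), and their part in the values of Elavl1 was not tested.

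Pum2 was the least variable of the 8 genes. Pum2 (1418017_at) had log2 signals of 9.99, 10.41 and 9.91 on the allogeneic arrays, 9.88, 10.40 and 9.91 on the anti-CD3/CD28 arrays and 9.88, 10.24 and 9.91 on the syngeneic arrays. All 3 arrays numbered 3 held the same value. The mean differences were 0.09 for allogeneic and 0.05 for anti-CD3/CD28 against syngeneic culture, and 0.04 for allogeneic against anti-CD3/CD28 culture, which was −0.10 with arrays centred on their medians. Its 95% interval against syngeneic culture was −0.77 to 0.96 for allogeneic and −0.82 to 0.92 for anti-CD3/CD28 culture.

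Xrn1 varied the most among arrays and showed no shared direction between cultures. Xrn1 (1450308_a_at) had log2 signals of 5.17, 6.52 and 8.48 on the allogeneic arrays, 5.08, 6.24 and 8.81 on the anti-CD3/CD28 arrays and 5.76, 6.24 and 8.14 on the syngeneic arrays. The signals followed the replicate number, lowest in number 1 and highest in number 3 in every culture. Within numbers, allogeneic arrays differed from syngeneic arrays by −0.59, 0.28 and 0.33 and anti-CD3/CD28 arrays by −0.68, 0 and 0.66. The means were 0.01 and −0.0042, and their directions changed with the scaling. The 95% interval of −2.30 to 2.31 for allogeneic against syngeneic culture is the widest of the 8 genes.

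Taking the 8 genes as a set, limma called none in any comparison at an adjusted p under 0.05, and the share called among all 18193 genes was 0% in each of the 3 comparisons, with or without the replicate block. With replicate number as a random block, limma called 0.0055%, 0.165% and 0% of all genes in the 3 comparisons, and none of the 8. At an unadjusted p under 0.05 without a block, 0.033% of all genes were higher and 0.115% lower in allogeneic against syngeneic culture, 0.0824% and 0.775% in anti-CD3/CD28 against syngeneic culture, and 0.126% and 0.0055% in allogeneic against anti-CD3/CD28 culture, and none of the 8 was among them. In allogeneic against syngeneic culture 3 of the 8 were higher, 4 lower and 1 equal, with a median difference of −0.10 beside 0.03 for all genes. In anti-CD3/CD28 against syngeneic culture 2 were higher and 6 lower, or 4 and 4 with arrays centred on their medians, with a median of −0.16 beside 0.00 for all genes. In allogeneic against anti-CD3/CD28 culture 5 were higher and 3 lower, or 3 and 5 with that centring, with a median of 0.03 beside 0.04. Quantile normalization, centring, the mean of all probe sets and leaving out the arrays numbered 1, the 4 alternatives used for list medians, put the median of the 8 at −0.13 to −0.02, −0.14 to −0.03 and −0.12 to −0.01 in the 3 comparisons. Centring moved the median of all genes to 0.11 in the second comparison and to −0.11 in the third, so small differences have no settled sign there.

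Lower in all 3 replicate numbers in allogeneic against syngeneic culture were 2 of the 8 genes, Zfp36l1 and Zfp36l2, as were 7.96% of all genes, and none was higher in all 3, as were 7.29%. In anti-CD3/CD28 against syngeneic culture Zfp36 and Zfp36l1 were lower in all 3 (9.15% of all genes) and Elavl1 was higher (7.8%). In allogeneic against anti-CD3/CD28 culture Zfp36l1 was higher in all 3 (4.39%) and Elavl1 lower (2.58%). At an unadjusted threshold of 0.05 with the replicate block, Zfp36l2 was lower in allogeneic against syngeneic culture, where 2.21% of all genes were lower and 2.33% higher at that level. In anti-CD3/CD28 against syngeneic culture, Zfp36l1 was lower and Elavl1 higher at that level, where 4.56% of all genes were lower and 2.23% higher. In allogeneic against anti-CD3/CD28 culture, none of the 8 reached it, where 0.792% were higher and 0.335% lower. Groups that do not overlap were found for 0 of the 8 genes in every comparison. Among all genes they were found, higher and lower, for 0.192% and 0.451% in allogeneic against syngeneic culture, 0.412% and 1.52% in anti-CD3/CD28 against syngeneic culture, and 0.269% and 0.055% in allogeneic against anti-CD3/CD28 culture. The first and second comparisons share the syngeneic arrays, so a gene that is lower in both is not counted as found in each of them independently.

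Replicate number accounted for more of each gene's variance over the 9 arrays than the culture did. Its share was lowest for Zfp36l1, at 75.7%, where the culture took 17.7%, and highest for Xrn1, at 96.6%, where the culture took 0.0015%. For Elavl1 the shares were 79.5% and 14.8%, and for Zfp36 78.8% and 11.3%. The brightest probe sets differed in which number was high: number 1 for the 3 tristetraprolin family genes and Rc3h1, number 2 for Zc3h12a and Pum2, and number 3 for Elavl1 and Xrn1. The other probe sets of Zfp36l1, Zfp36l2 and Pum2 were instead highest in number 3 in every culture, so this order belongs to the probe set. On the arrays numbered 2 the mean of 6 stromal markers was 8.60 in allogeneic, 8.20 in anti-CD3/CD28 and 10.05 in syngeneic culture, against 4.21 to 4.53 on the other arrays, and its part in the values of the 8 genes was not tested.

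The other probe sets did not all share the direction of the brightest one. The 2 dimmer probe sets of Zfp36l2 ran the other way in both stimulated cultures: 1439054_at differed from syngeneic culture by 0.01, 0.48 and 0.27 in allogeneic culture (mean 0.25) and 1451034_at by 0.15, 0 and 1.28 (mean 0.48). In anti-CD3/CD28 culture they differed by 0.17 and 0.51 on average, and with the mean of all probe sets Zfp36l2 was higher by 0.13 in allogeneic and 0.15 in anti-CD3/CD28 culture. A lower Zfp36l2 is thus a result of the brightest probe set alone. The dimmer probe set of Zfp36l1 (1422528_a_at), which was under the array median on 3 arrays, differed by −0.09, −0.13 and 0.86 in allogeneic culture and by −0.09, −0.30 and −0.32 in anti-CD3/CD28 culture, where it had the direction of the brightest in all 3 numbers. The dimmer probe set of Zc3h12a (1443993_at) was above the array median on every array. It differed from syngeneic culture by 0.02, 0.75 and 0 in allogeneic culture (mean 0.26), where the brightest was equal in every number. In anti-CD3/CD28 culture it differed by 0.10, 0.11 and 0 (mean 0.07), against a mean of −0.28 for the brightest. Zfp36 and Rc3h1 had 1 probe set each, so this check could not be made for them.

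For Elavl1, 1431037_a_at gave a mean difference of 0.43 in anti-CD3/CD28 against syngeneic culture, close to the 0.42 of the brightest, but its 3 differences were 0.75, 0.64 and −0.11. A further probe set, 1452858_at, was exactly equal in the 2 cultures in all 3 numbers. The remaining 3 differed by 0.10, 0.09 and −0.44 on average, and the last 2 of these were under the array median on 7 of 9 arrays. The 3 other probe sets of Pum2 had mean differences against syngeneic culture of −0.11 to 0.14, and the other one of Xrn1 −0.10 in allogeneic and 0.05 in anti-CD3/CD28 culture. Over all 21 probe sets, 9 were higher and 11 lower in allogeneic against syngeneic culture, 11 and 8 in anti-CD3/CD28 against syngeneic culture, and 10 and 10 in allogeneic against anti-CD3/CD28 culture, the rest being within 0.005 of 0. None was called, and the lowest adjusted p with the replicate block over all probe sets was 0.747, 0.736 and 0.910 in these comparisons.

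**Figure D3:**
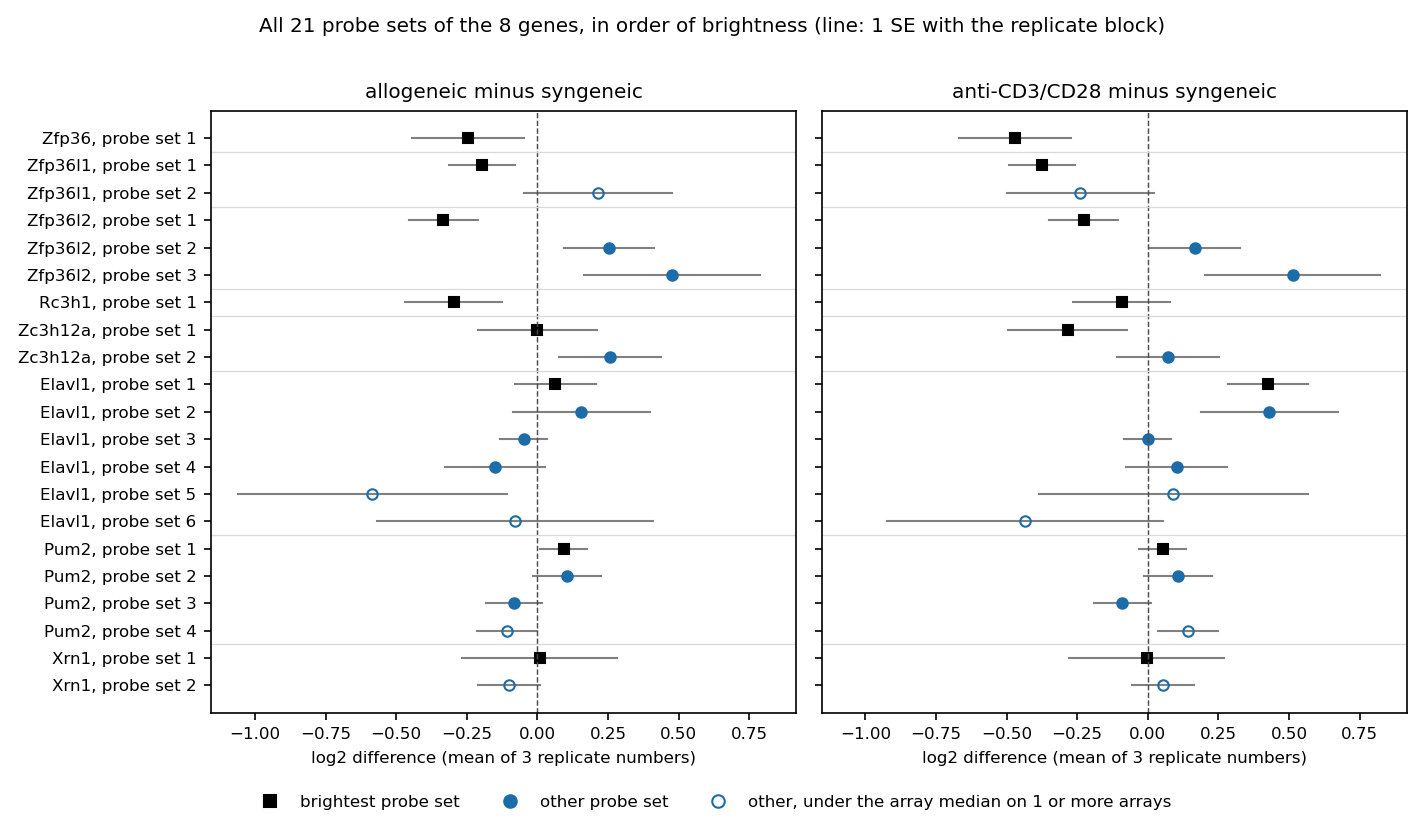
Mean log2 difference over the 3 replicate numbers for each of the 21 probe sets, in allogeneic minus syngeneic (left) and anti-CD3/CD28 minus syngeneic culture (right). Squares are the brightest probe set of a gene, open circles are probe sets under the array median on at least 1 array, and lines are 1 SE of limma with the replicate block; the square of Zfp36l2 lies below 0 and its 2 circles above it in both panels.

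With the mean of each replicate number taken away, the signals of some of the genes followed each other over the 9 arrays. Zfp36 and Elavl1 ran opposite (Pearson r = −0.91), as did Zfp36l1 and Elavl1 (r = −0.72). The tristetraprolin family genes ran together, with r of 0.63 for Zfp36 and Zfp36l1, 0.60 for Zfp36 and Zfp36l2 and 0.55 for Zfp36l1 and Zfp36l2. This was not particular to the family, since r was 0.78 for Zfp36l1 and Zc3h12a and 0.60 for Zfp36l2 and Rc3h1. All these r are of the brightest probe sets. These are descriptions over 9 arrays that share their cultures, normalization and cell content. By the same measure, among 8852 genes at or above the median signal, the genes most like Zfp36 were Khnyn and Tmem140 (r = 0.988 and 0.984), those most like Zfp36l1 were Oas1a and Slc35a2 (r = 0.995 and 0.994) and those most like Zfp36l2 were Stambpl1 and Edem2 (r = 0.975 and 0.969). Elavl1 was followed most closely by Cdc23, a subunit of the anaphase-promoting complex, and Zap70, a kinase of the T cell receptor (r = 0.960 and 0.951). Pum2 was most like Eef1a1 and Hnrnpk (r = 0.988 and 0.976), and Xrn1 was most like Jmjd8 and Trim11 (r = 0.985 and 0.974). For Rc3h1 these were Zfp622 and Atg14 (r = 1.00 and 0.997). Rc3h1 was equal on the arrays numbered 1, and its likeness rests mostly on number 2, where the allogeneic array was lowest at 8.58. The genes most like Zc3h12a were Palb2 and Lrfn1 (r = 1.00 each), a likeness that rests on anti-CD3/CD28 array 3 alone.

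The other genes of messenger RNA decay showed where these 8 stand in their pathway. None of them was called in any comparison, and the medians here stand beside 0.03 for all genes in allogeneic against syngeneic culture and 0.00 in anti-CD3/CD28 against syngeneic culture. The RNA exosome, which degrades RNA from its tail end, had the largest median of the 5 lists of decay genes in both comparisons. In allogeneic culture 10 of its 13 genes were higher than in syngeneic culture and 3 lower (median 0.32), and 4 were higher in all 3 numbers and none lower. In anti-CD3/CD28 culture 12 were higher and 1 lower (median 0.40), with 4 higher in all 3 numbers and none lower. Under the same 4 alternatives the median was 0.17 to 0.29 in allogeneic and 0.41 to 0.52 in anti-CD3/CD28 culture.

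Exosc2, a cap subunit of the exosome, had log2 signals of 9.03, 7.91 and 9.68 on the anti-CD3/CD28 arrays and 8.32, 7.02 and 8.60 on the syngeneic arrays. It was thus higher in anti-CD3/CD28 culture in each number, by 0.70, 0.89 and 1.08, with a mean of 0.89 and an adjusted p of 0.677 with the replicate block. In allogeneic culture it had 8.64, 7.15 and 9.43, higher than in syngeneic culture by 0.43 on average. Exosc1, another cap subunit, was higher than in syngeneic culture by 0.93, 0.34 and 0.50 in allogeneic culture and by 1.16, 0.39 and 0.47 in anti-CD3/CD28 culture. Exosc5, a subunit of the ring, differed by 0.54 and 0.44 on average in the 2 cultures, most of it in number 3. Since the 2 stimulated arrays numbered 1 were close to equal, these comparisons share more than their syngeneic arrays.

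The deadenylation genes had no common direction. Of 17 genes, 6 were higher and 11 lower in allogeneic against syngeneic culture (median −0.12, and −0.15 to 0.02 under the 4 alternatives), and 8 were higher and 9 lower in anti-CD3/CD28 against syngeneic culture (median −0.02, and −0.03 to 0.12 under the alternatives). The antiproliferative gene Tob1, whose protein brings CCR4-NOT to poly(A)-bound transcripts, had log2 signals of 5.11, 6.53 and 6.27 in allogeneic, 5.11, 6.84 and 5.18 in anti-CD3/CD28 and 5.40, 7.68 and 6.91 in syngeneic culture. It was lower than in syngeneic culture in all 3 numbers of both, by 0.70 and 0.95 on average. Tob2, a relative of Tob1, differed by −0.02, −1.53 and −0.03 in allogeneic culture, so its mean of −0.53 rests on number 2. Btg1, of the same protein family, was lower in anti-CD3/CD28 culture by 0.34, 0.25 and 0.58, with signals of 11.88, 10.93 and 11.30 against 12.21, 11.18 and 11.89 in syngeneic culture. Among the subunits of the complex, Cnot11 was 0.21 higher in allogeneic and Cnot6l 0.16 lower in anti-CD3/CD28 culture on average.

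Decapping genes were spread around 0, with 4 higher and 6 lower of 10 in allogeneic (median −0.03, and −0.06 to 0.05 under the 4 alternatives) and 3 higher and 7 lower in anti-CD3/CD28 against syngeneic culture (median −0.06, and −0.13 to 0.05 under the alternatives). Edc3, an enhancer of decapping, was lower than in syngeneic culture by 0.33, 1.76 and 0.29 in allogeneic and by 0.33, 0.95 and 0.38 in anti-CD3/CD28 culture. The helicase gene Ddx6 differed by −0.10 and −0.25 on average, and Eif4enif1, which encodes a partner of the cap-binding protein eIF4E, by 0.34 in allogeneic culture.

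Of 10 nonsense-mediated decay genes 7 were measured, and their medians were −0.06 in allogeneic and 0.08 in anti-CD3/CD28 against syngeneic culture. The 4 alternatives gave −0.11 to −0.04 in allogeneic and 0.08 to 0.25 in anti-CD3/CD28 culture. Upf2, a core factor of that pathway, had log2 signals of 7.55, 8.38 and 8.69 in allogeneic, 7.47, 8.35 and 8.18 in anti-CD3/CD28 and 8.03, 9.09 and 8.99 in syngeneic culture. It was lower than in syngeneic culture in all 3 numbers of both, by 0.50 and 0.70 on average, with adjusted p of 0.709 and 0.677 with the replicate block. Smg9, a regulator of the kinase SMG1, was 0.43 higher in anti-CD3/CD28 culture on average, with 1.15 of difference in number 3.

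Among 13 measured relatives and partners of the 8 genes, 9 were higher and 4 lower in allogeneic (median 0.07, and 0.03 to 0.11 under the 4 alternatives), and 5 were higher and 8 lower in anti-CD3/CD28 against syngeneic culture (median −0.10, and −0.15 to 0.02 under the alternatives). Rc3h2, which encodes Roquin-2, the paralog of Roquin-1, had 5.67, 7.63 and 8.14 in allogeneic, 5.67, 7.03 and 7.90 in anti-CD3/CD28 and 6.23, 7.83 and 8.29 in syngeneic culture. It was lower than in syngeneic culture by 0.56, 0.20 and 0.15 in allogeneic and by 0.56, 0.80 and 0.40 in anti-CD3/CD28 culture, while Rc3h1 itself was equal in number 1. Hnrnpd, which encodes the AU-rich element binding protein AUF1, had 11.31, 10.91 and 11.10 on the anti-CD3/CD28 arrays and 10.83, 10.79 and 10.89 on the syngeneic arrays. It was 1 of the 0.412% of genes whose anti-CD3/CD28 arrays all lay above the syngeneic arrays, with a mean difference of 0.27 and an adjusted p of 0.729 with the block. Tial1, which binds AU-rich and U-rich elements, was higher in anti-CD3/CD28 culture by 0.20, 0.13 and 0.22. Arid5a, known for stabilising Il6 mRNA against Regnase-1, was 0.30 higher in allogeneic culture on average, most of it in number 3.

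**Figure D4:**
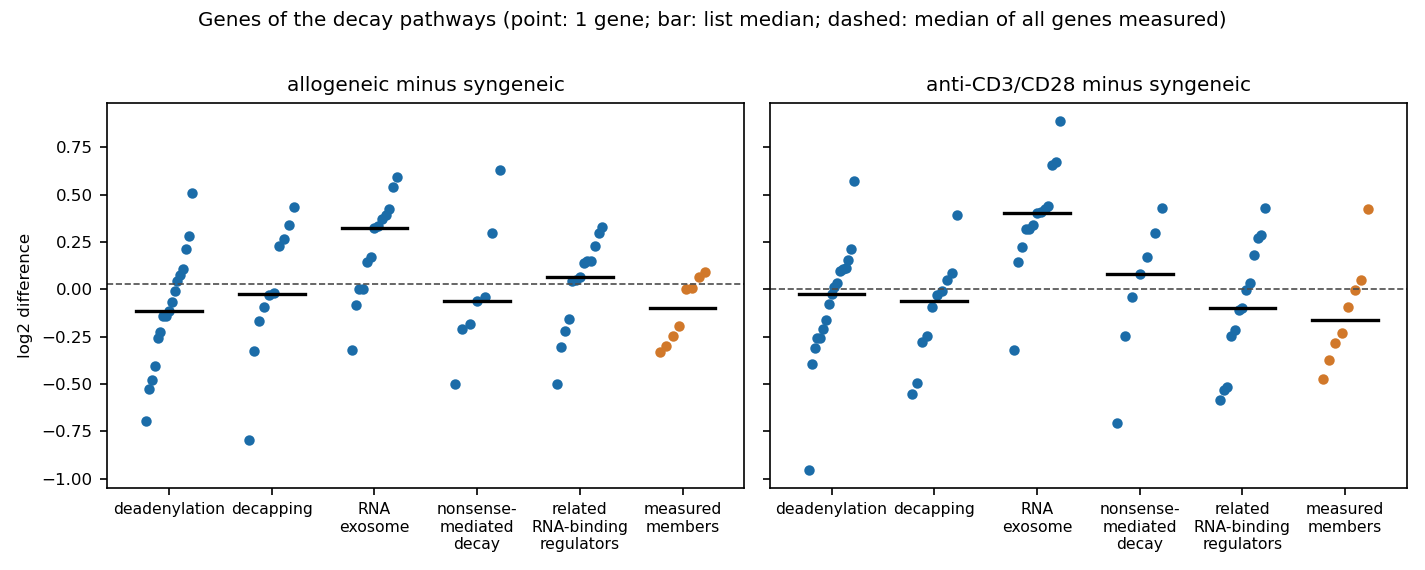
Log2 difference of each gene of 5 decay pathway lists and of the 8 measured genes (points), in allogeneic minus syngeneic (left) and anti-CD3/CD28 minus syngeneic culture (right), with each list's median (bar) and the median of all 18193 genes (dashed line). The RNA exosome medians, 0.32 and 0.40, are the highest of the 5 lists, and the points of the 8 genes lie between −0.47 and 0.42.

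Between the stimulated cultures the decay genes gave no call either. The medians for allogeneic against anti-CD3/CD28 culture were −0.06 for deadenylation, 0.11 for decapping, −0.06 for exosome, 0.00 for nonsense-mediated decay and 0.03 for related genes, beside 0.04 for all genes. Centring, which moved the median of all genes to −0.11, gave −0.21 for deadenylation, −0.04 for decapping, −0.20 for exosome, −0.15 for nonsense-mediated decay and −0.11 for related genes. After centring all 13 exosome genes were lower in allogeneic culture, against 9 of 13 on the values as deposited, while with the mean of probe sets 7 were higher and 6 lower (median 0.0013). Exosc2 was lower in allogeneic culture by 0.38, 0.77 and 0.25, with an adjusted p of 0.928 with the block. The deadenylase gene Parn was 0.35 lower on average, most of it in number 2. Btg1 was higher in allogeneic culture by 0.19, 0.62 and 0.18, Cnot11 by 0.24 on average, Eif4enif1 by 0.35 and Upf2 by 0.21.

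Of 19 reported targets of the tristetraprolin family, Roquin or Regnase-1, 9 were higher and 10 lower in allogeneic (median −0.19) and 8 higher and 11 lower in anti-CD3/CD28 against syngeneic culture (median −0.26). With the mean of all probe sets the allogeneic median was 0.03, with 11 higher and 8 lower, and without the arrays numbered 1 the anti-CD3/CD28 median was −0.63, with 5 higher and 14 lower. In all 3 numbers 2 targets were higher and 4 lower in allogeneic culture, and 2 were higher and 5 lower in anti-CD3/CD28 culture. None was called. Il2, the T cell growth factor, had log2 signals of 8.01, 9.47 and 11.54 on the allogeneic arrays, 8.01, 7.48 and 9.18 on the anti-CD3/CD28 arrays and 5.97, 8.60 and 8.22 on the syngeneic arrays. The allogeneic arrays were higher than the syngeneic arrays of their number by 2.04, 0.87 and 3.31. Lower than in syngeneic culture in all 3 numbers were Fos, which encodes a subunit of the transcription factor AP-1, and Cxcl2, a chemokine gene of myeloid cells. Fos had 4.53, 6.30 and 7.14 on the allogeneic arrays, the first of them under the array median, and 4.91, 6.99 and 8.44 on the syngeneic arrays. Cxcl2 had 4.38, 4.75 and 6.89 on the allogeneic arrays, with 2 of 3 under the array median, and 6.03, 5.86 and 7.73 on the syngeneic arrays. The 10 macrophage and monocyte markers had a median difference of −0.82 in this comparison, whose part in these values was not tested. Myc, a driver of T cell growth, was higher in anti-CD3/CD28 than in syngeneic culture by 0.82, 0.85 and 1.03, with an adjusted p of 0.711 with the block. Cxcl2 and the cytokine gene Il6 were lower in anti-CD3/CD28 than in syngeneic culture in all 3 numbers, but no size is given for these differences because the anti-CD3/CD28 signals lay mostly under the array median. Cxcl2 had 4.63, 4.10 and 3.20 on the anti-CD3/CD28 arrays, with 2 of 3 under the array median. Il6 had 4.21, 3.01 and 2.81 on the anti-CD3/CD28 arrays, all 3 under the array median, against 4.36, 6.80 and 7.70 on the syngeneic arrays, the first of them also under it. In the same comparison the median difference was −1.10 for the 10 macrophage and monocyte markers, −0.80 for the 10 dendritic cell markers and −0.69 for the 6 granulocyte markers, and their part in these values was not tested. In allogeneic against anti-CD3/CD28 culture 14 of the 19 were higher and 5 lower (median 0.33), including Il2 by 1.45, the costimulatory receptor gene Tnfrsf4 by 0.68 and Ifng by 0.64 on average, with none called. The median was 0.18 after quantile normalization, 0.19 after centring and 0.57 without the arrays numbered 1. Dendritic cell markers were higher in the same comparison for 9 of 10 genes (median 0.50) and granulocyte markers for 5 of 6 (median 0.86), and their part in the values of the targets was not tested.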

How the data were processed

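AGO-bound RNA of T cells was measured on 9 arrays, 3 for each of 3 cultures. Per the submitters' processing notes, the authors deposited log2 values made by RMA (robust multi-array average), 1 per probe set. Which software ran it is not given in the sources used here. No further normalization was applied. Scanner files and arrays of input RNA were not analysed here. The number of arrays limits the precision. RMA values hold no counts, so no depth is given.

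The table holds 45101 probe sets. The 64 controls, 932 probe sets annotated with several genes and 9160 without a gene were left out. The remaining 34945 were named from the platform annotation, with 34741 symbols updated by gene ID from a RefSeq table of the assembly GRCm38.p6. Each of 18193 genes was represented by its brightest probe set, and 9010 genes had more than 1.

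The fit was a linear model of limma 3.58.1 under R 4.3.3, with all 9 arrays, 1 mean per culture and an intensity trend. P-values were adjusted after Benjamini and Hochberg over the 18193 genes, and a gene was called at an adjusted p under 0.05. The replicate numbers pair the arrays. Deviations from the culture means correlated at 0.811 to 0.921 in the 9 same-number pairs, against −0.597 to −0.165 in the 18 pairs of other number and other culture. The labels do not say what a number shares. The fit without a block is the main one, and the block is an alternative.

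The members and the lists (deadenylation, decapping, exosome, nonsense-mediated decay, related regulators, reported targets, and markers of T, macrophage, dendritic, B, granulocyte and stromal cells) were chosen with earlier results of these data known. Of each pathway list, up to 3 genes per comparison were named, those with the smallest p in the blocked fit among genes with differences of 1 sign in all 3 numbers. For likeness, the 2 genes with the highest Pearson correlation over the 9 arrays were named per member, after the mean of each replicate number was taken away, predicted genes and genes below the median left out. Alternatives were the replicate block, quantile normalization, centring of arrays, the mean of probe sets, dim genes left out (under the 40th percentile), no intensity trend, only the 6 arrays compared and leaving out each array. Chosen after seeing the data were fits without the arrays numbered 1, replicate number as a random block, every probe set tested on its own, and the block together with leaving out each array.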

Additional observations from a re-analysis of the deposited data

How the results depend on the processing

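None of the 8 genes was called under any alternative in any comparison, and the lowest adjusted p of any of them was 0.307. With the replicate block, which the pairing of the arrays allows, 0 genes were called in each comparison, and it changed no call of the 8 genes. The numbers of all genes called went to 1 in allogeneic against syngeneic and 1 in anti-CD3/CD28 against syngeneic culture with arrays centred on their medians (Csf1r in both). With replicate number as a random block they went to 1 and 30. Over the 8 genes and 3 comparisons the alternatives gave 456 values. In 2 cases, Zc3h12a in allogeneic and Xrn1 in anti-CD3/CD28 against syngeneic culture, the reported difference was within 0.005 of 0 and had no direction to keep, and 12 of their 38 values were higher, 8 lower and 18 within 0.005 of 0. Of the other 418 values, 364 kept their direction, 50 had the opposite one and 4 were within 0.005 of 0. Part of the 364 could not have changed, because some alternatives leave the difference itself as it was. These are the replicate block, fixed or random, no intensity trend, dim genes left out and only the compared arrays. Leaving out an array of the culture not compared cannot change it either. Values kept under these alternatives are thus no check of direction. Part of the opposite values came from fits with 1 array left out and no block, which can set unequal replicate numbers against each other. Fits with 1 array left out and the block are not among the 456 values. None of the values was called, and the cause of the changes in direction was not tested.

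In allogeneic against syngeneic culture, the mean of all probe sets gave 0.0097 for Zfp36l1, 0.13 for Zfp36l2, −0.11 for Elavl1 and −0.046 for Xrn1, and centring gave −0.023 for Xrn1. Without the arrays numbered 1, with or without the block, Zfp36 was 0.030 and Elavl1 −0.088. In anti-CD3/CD28 against syngeneic culture, the mean of probe sets gave 0.15 for Zfp36l2 and centring gave 0.020 for Rc3h1. Xrn1, at −0.0042 in that comparison, was 0.12 after quantile normalization, 0.11 after centring, 0.025 with the mean of probe sets and 0.33 without the arrays numbered 1. In allogeneic against anti-CD3/CD28 culture, centring gave −0.10 for Pum2 and −0.13 for Xrn1, the mean of probe sets gave −0.050 and −0.071, quantile normalization gave −0.086 for Xrn1, and leaving out the arrays numbered 1, with or without the block, gave −0.025 for Xrn1.

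With each array left out in turn, without the block, differences from syngeneic culture took both signs for Zfp36 (−0.66 to 0.23), Rc3h1 (−0.82 to 0.14), Zc3h12a (−0.56 to 0.56), Elavl1 (−0.24 to 0.35), Pum2 (−0.059 to 0.21) and Xrn1 (−0.87 to 0.79) in allogeneic culture. In anti-CD3/CD28 culture they did so for Zfp36 (−0.89 to 0.0065), Zfp36l2 (−0.48 to 0.013), Rc3h1 (−0.52 to 0.29), Zc3h12a (−0.84 to 0.13), Pum2 (−0.11 to 0.17) and Xrn1 (−1.05 to 0.81). Allogeneic against anti-CD3/CD28 culture did so for Zfp36 (−0.0015 to 0.55), Zfp36l1 (−0.039 to 0.46), Zfp36l2 (−0.32 to 0.11), Rc3h1 (−0.73 to 0.23), Zc3h12a (−0.13 to 0.84), Pum2 (−0.11 to 0.21) and Xrn1 (−0.86 to 1.06). Zfp36l1 stayed lower and Elavl1 higher in anti-CD3/CD28 against syngeneic culture in all 9 such fits, at −0.66 to −0.20 and 0.10 to 0.70. Leaving out an allogeneic array cannot change this comparison, so only the fits without an anti-CD3/CD28 or syngeneic array could have changed the sign. Where the array left out belongs to a compared culture, such a fit sets unequal replicate numbers against each other. The ranges thus also hold offsets between numbers, as for Zc3h12a, whose brightest probe set was equal in allogeneic and syngeneic culture in every number. Signal over background limits Zc3h12a and Xrn1, the nearest to the array medians.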
